A study of Mus musculus with 8 samples.

Results

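Interferon-stimulated genes are the transcripts that a cell makes when interferon binds its receptors, and 38 of them were examined in hearts of mice lacking steroid receptor coactivator-2 (SRC-2, encoded by Ncoa2). The members were found by gene name in the annotation of the array, from a list drawn up with earlier results of these data known, and 36 of the 38 could be measured among 18194 genes in all. Each was placed by its best known inducer: 17 measured genes as type I targets, 11 as type II targets and 8 as shared targets. The study hybridised RNA from 4 SRC-2 KO hearts and 4 WT hearts, 1 array per heart, to Affymetrix Mouse 430 2.0 arrays. All animals were unstressed male littermates on a mixed C57B/6Jx129Sv background, fed ad libitum and 10 to 12 weeks old by the labels, and the KO animals carried the SRC-2 deletion with no cell type restriction named. Whole hearts were extracted, so fewer cells of a type and less RNA per cell cannot be told apart in any value that follows.

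Type I interferons signal through Ifnar1 and Ifnar2 to the kinases Jak1 and Tyk2, and the resulting complex, which holds Stat2 and Irf9, binds a DNA element called the interferon-stimulated response element (ISRE). Type II interferon, the product of Ifng, signals through Ifngr1, Ifngr2, Jak1 and Jak2 to a different element, the gamma-activated sequence (GAS), and induces Irf1, itself a factor that binds ISRE-like DNA. A low level of this program is present without infection in many tissues, and in the heart its products are found in myocytes as well as in resident macrophages and endothelial cells.

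Promoters of some of the genes on which the results below turn are printed here, picked from those that hold an element just named. RefSeq (GRCm38.p6) gave a window of 300 bases, 250 before to 50 after the annotated start, for 27 of the 36 measured members. The ISRE was searched as GAAA and GAAA with any 2 bases between them, or on the other strand as TTTC and TTTC with any 2 bases between, and the GAS as TTC and GAA with any 3 bases between, which reads the same on both strands. In each line below capitals mark the matched bases, lower case marks the sequence on either side, and the sequence runs along the strand of the gene.
Ifit1, type I, chr19:34640765-34640833, + strand, 2 ISRE matches: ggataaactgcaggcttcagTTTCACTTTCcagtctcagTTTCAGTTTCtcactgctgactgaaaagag
Ifit3, type I, chr19:34583353-34583436, + strand, 2 ISRE matches: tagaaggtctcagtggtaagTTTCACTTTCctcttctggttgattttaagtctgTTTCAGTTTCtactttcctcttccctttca
Bst2, type I, chr8:71537567-71537628, - strand, 2 ISRE matches that overlap each other and 1 GAS match that overlaps the first: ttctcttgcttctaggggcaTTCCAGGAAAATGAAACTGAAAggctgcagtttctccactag
Gbp3, type II, chr3:142559979-142560034, + strand, 2 overlapping ISRE matches: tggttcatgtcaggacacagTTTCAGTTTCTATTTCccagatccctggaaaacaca
Igtp, type II, chr11:58199491-58199551, + strand, 1 GAS match and then 1 ISRE match: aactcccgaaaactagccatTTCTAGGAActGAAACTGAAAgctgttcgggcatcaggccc
Irf1, type II, chr11:53769904-53769952, + strand, 1 GAS match: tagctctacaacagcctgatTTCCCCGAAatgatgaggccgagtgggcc

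An ISRE match was present in 14 of the 27 members with a window (51.9%), against 3.99% of the 27025 genes with a window of this length (3.44% of all 32851 windows). A gene was counted if any of its windows held a match. By class, 7 of 11 type I, 5 of 10 type II and 2 of 6 shared genes had one. The type I gene Ifit2, not printed above, had a GAS match and no ISRE match. A GAS match was present in 7 of the 27 (25.9%), against 9.55% of genes with a window (8.3% of all windows). Gbp3 and Igtp, both interferon-inducible GTPase genes with ISRE matches, stood on opposite sides in the arrays, as described below. These matches describe letters in a window and not binding.

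The targeted gene followed the labels, and no array stood apart in its overall signal. Values were array signals on a linear scale with no unit, and a signal of 50 was used as a mark for dim genes. The Ncoa2 signal was 237, 260, 267 and 235 in SRC-2 KO hearts 1 to 4, against 1660, 2115, 1827 and 2134 in WT hearts, a log2 fold change (KO minus WT) of -2.95 ± 0.12 (SE; limma adjusted p = 5.8e-04). All 10 ventricular myocyte markers had mean signals over 50, and their differences are given below with the other markers. Median array signals ran from 75.6 to 83.2 in SRC-2 KO hearts and from 77.0 to 87.3 in WT hearts. The mean correlation of log2 signal of SRC-2 KO heart 4, the heart that departs from the others below, was 0.975 with the other KO hearts and 0.976 with the WT hearts. For KO hearts 1 to 3 it was 0.976, 0.980 and 0.975 with the other KO hearts. With the WT hearts it was 0.969, 0.973 and 0.961, so KO heart 4 had the highest correlation with WT of the KO hearts. These correlations were taken over the genes with a mean signal above that of the median gene.

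The type I targets tended to have lower values in 3 of the 4 SRC-2 KO hearts and not in the fourth, while the type II targets showed no shared shift. Over 17 type I genes the median log2 fold change was -0.39, and 12 of the 17 had a lower mean in SRC-2 KO hearts. Over 11 type II genes the median was 0.03, with 4 of 11 lower, and over 8 shared genes it was -0.28, with 6 of 8 lower. Over all 36 members the median was -0.22 with 61.1% lower, beside -0.03 and 53.1% over all genes. The difference between the classes was not tested.

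No single member passed the test. Genes were compared with limma, in which each gene's spread is moderated toward that of all genes, either toward 1 common value or toward a value that follows the signal (the trended fit), with p adjusted over all 18194 genes by the Benjamini-Hochberg method. With the common value 0 of 36 members had an adjusted p under 0.05, where 0.00550% of all genes were called higher and 0.0165% lower. The trended fit also called 0 of 36, with 0.121% of all genes called higher and 0.253% lower, and 0 members were called by the random variance model test or with each gene's own variance. At an unadjusted p under 0.05 the common fit of limma had 6 members lower (16.7%, beside 6.09% of all genes) and 1 higher (2.78%, beside 3.94%). In the trended fit these were 7 lower (19.4%, beside 7.22%) and 2 higher (5.56%, beside 5.33%).

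**Figure D1:**
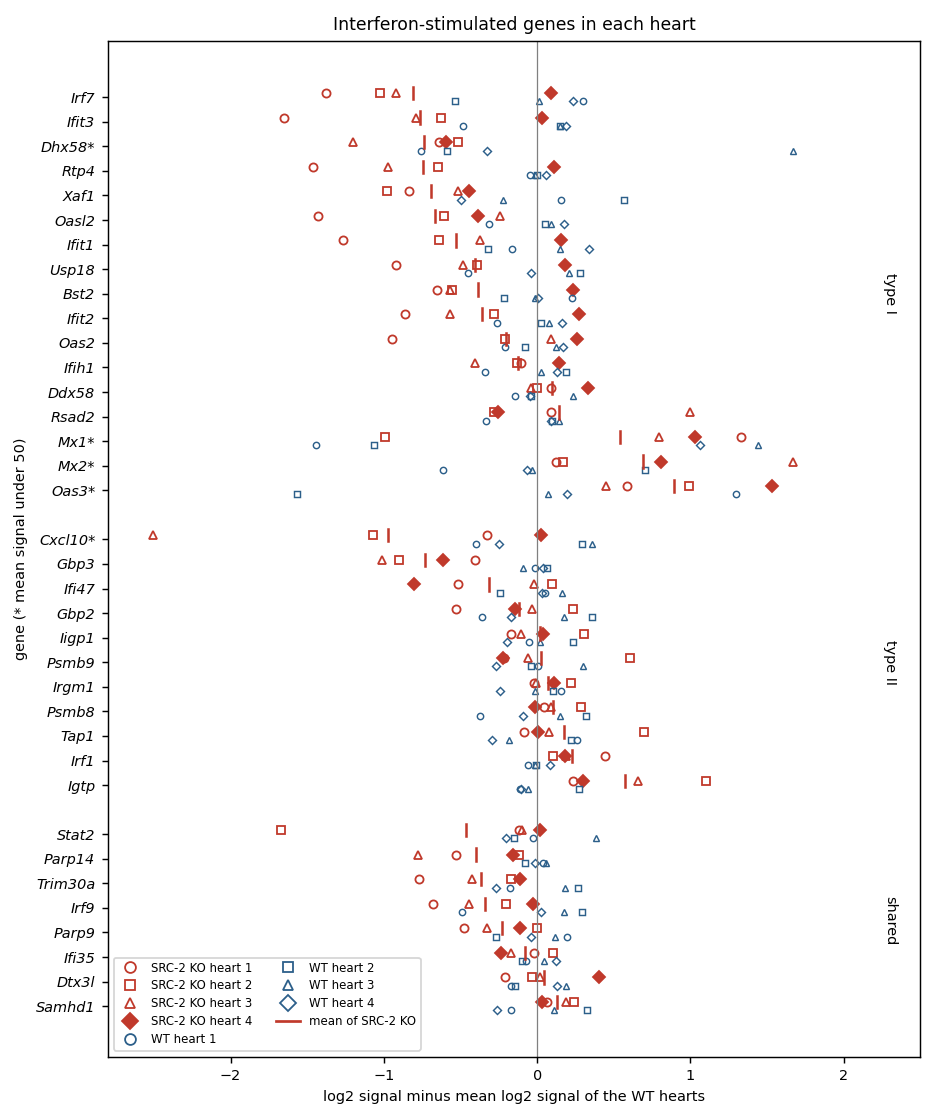
Each point is the log2 signal of a heart minus the mean log2 signal of the 4 WT hearts, for the 36 measured genes by class, with SRC-2 KO hearts in red above WT hearts in blue, a red bar at the KO mean and SRC-2 KO heart 4 filled. Among the type I genes the filled symbol is the highest of the KO symbols in 12 of 17, whereas type II values scatter on both sides of 0.

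Beginning with transcription and feedback, Irf7, the factor that amplifies type I interferon production, had signals of 149, 190, 205 and 412 in SRC-2 KO hearts, against 476, 267, 390 and 455 in WT hearts. Hearts 1 to 3 of the KO group lay below every WT heart, and heart 4 lay among them. The log2 fold change was -0.81 ± 0.34 (SE), with a 95% interval of -1.61 to -0.01 and a limma adjusted p of 0.496 (0.269 in the trended fit). Usp18, the protease that removes Isg15 from proteins and restrains Ifnar2, also had heart 4 as the highest KO heart, with 178, 257, 241 and 383 in SRC-2 KO hearts and 247, 409, 390 and 328 in WT hearts (log2 fold change -0.40 ± 0.27 SE). Irf9, the DNA-binding subunit of the type I complex, measured 294, 409, 345 and 462 in SRC-2 KO hearts against 335, 575, 530 and 478 in WT hearts, and the groups overlapped (-0.34 ± 0.22 SE). Its partner Stat2 was weak, at 62.8 ± 25.6 in SRC-2 KO hearts and 80.1 ± 15.9 in WT hearts (SD, n = 4 each).

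Irf1, which is induced chiefly through the GAS pathway, differed from these factors. Its signals were 1355, 1073, 1134 and 1131 in SRC-2 KO hearts, against 955, 992, 990 and 1056 in WT hearts. It was the 1 member of 36 whose KO values all lay above all WT values (3.11% of all genes did so). The distance was small, a log2 fold change of 0.23 ± 0.11 (SE) with a limma adjusted p of 0.54 (0.376 in the trended fit).

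Among the antiviral effectors, Ifit1, Ifit2 and Ifit3 make the proteins that bind foreign RNA and block its translation, and in each of them heart 1 was the lowest and heart 4 the highest KO heart, as for Irf7. Ifit3 measured 176, 358, 320 and 565 in SRC-2 KO hearts, against 396, 614, 615 and 630 in WT hearts. Ifit1 measured 181, 280, 337 and 486 in SRC-2 KO hearts, against 389, 348, 483 and 550 in WT hearts. Ifit2 measured 389, 582, 477 and 857 in SRC-2 KO hearts, against 590, 722, 747 and 792 in WT hearts. For each of the 3 genes, KO hearts 1 to 3 were below all WT hearts and KO heart 4 was inside or above the WT range. Their log2 fold changes were -0.76 ± 0.36, -0.53 ± 0.31 and -0.36 ± 0.25 (SE) for Ifit3, Ifit1 and Ifit2, with limma adjusted p of 0.527, 0.602 and 0.652.

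Rtp4, an interferon-induced inhibitor of flaviviruses, also had heart 1 as the lowest and heart 4 as the highest KO heart. It measured 674, 1187, 945 and 2000 in SRC-2 KO hearts, against 1801, 1858, 1839 and 1933 in WT hearts. The WT hearts lay within a narrow band while KO hearts spread widely, and KO heart 4 was above all WT hearts. The log2 fold change was -0.74 ± 0.31 (SE) with a limma adjusted p of 0.491 (0.209 in the trended fit). Bst2, which tethers budding virions to the cell surface, measured 537, 576, 571 and 996 in SRC-2 KO hearts, against 991, 728, 837 and 847 in WT hearts. As in the brighter Rtp4 probeset, KO hearts 1 to 3 were the lowest of the 8 and heart 4 the highest (-0.39 ± 0.22 SE, limma adjusted p = 0.595).

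Xaf1, a pro-apoptotic gene, and Oasl2, a relative of the oligoadenylate synthetases, had lower means, with an overlap of the groups through KO heart 4 for Xaf1 and KO heart 3 for Oasl2. Xaf1 measured 370, 335, 462 and 485 in SRC-2 KO hearts, against 735, 978, 565 and 467 in WT hearts (-0.69 ± 0.25 SE, limma adjusted p = 0.458). A second probeset of Xaf1 did not show this: it measured 102, 976, 144 and 1601 in SRC-2 KO hearts, against 81.1, 104, 1627 and 1794 in WT hearts, so that high and low hearts were found in each genotype (log2 fold change -0.02, exact permutation p = 0.914). Oasl2 measured 85.9, 152, 196 and 177 in SRC-2 KO hearts, against 186, 240, 247 and 261 in WT hearts (-0.67 ± 0.27 SE, limma adjusted p = 0.486). Oas2, which makes the second messenger that activates the ribonuclease RNase L, averaged 146 ± 47.6 in SRC-2 KO hearts and 162 ± 19.7 in WT hearts (SD, n = 4 each).

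The remaining effectors varied. Rsad2, the viperin gene, measured 2829, 2188, 5300 and 2226 in SRC-2 KO hearts, against 2110, 2843, 2932 and 2820 in WT hearts. The high value of KO heart 3 was seen in all 3 probesets of Rsad2, where heart 3 was the highest of the 8 hearts each time (5300, 1406 and 661). Oas3, Mx1 and Mx2, an oligoadenylate synthetase and the Mx antiviral GTPases, had mean signals under 50, at 20.3 ± 7.26, 35.8 ± 18.2 and 24.6 ± 13.5 in SRC-2 KO hearts against 13.1 ± 9.25, 29.8 ± 24.7 and 14.6 ± 5.67 in WT hearts (SD, n = 4 each). Their log2 fold changes of 0.89, 0.54 and 0.69 rest on signals near the background of the array. The shared effector Trim30a, a ubiquitin ligase gene, measured 204, 310, 260 and 323 in SRC-2 KO hearts against 308, 419, 396 and 289 in WT hearts (-0.37 ± 0.20 SE). Heart 1 was the lowest and heart 4 the highest KO heart, and the groups overlapped. A second probeset of Trim30a did not show this order, with heart 1 the highest KO heart. It measured 282, 140, 197 and 146 in SRC-2 KO hearts, against 168, 179, 205 and 184 in WT hearts (log2 fold change 0.00). Ifi35 and Samhd1, a nucleotide triphosphohydrolase gene that limits viral DNA synthesis, had log2 fold changes of -0.08 and 0.13. Of the sensors of viral RNA, Ddx58 (RIG-I) averaged 462 ± 55.7 in SRC-2 KO hearts and 433 ± 51.2 in WT hearts, and Ifih1 (MDA5) 416 ± 63.5 in SRC-2 KO hearts and 454 ± 69.2 in WT hearts (SD, n = 4 each). Dhx58 (LGP2), their regulator, was under 50 in 7 of the 8 hearts.

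Parp14 and Parp9 transfer ADP-ribose, and Dtx3l is the ubiquitin ligase that partners Parp9. Parp14 measured 394, 524, 332 and 509 in SRC-2 KO hearts, against 583, 538, 592 and 564 in WT hearts, with all KO values below all WT values. Its log2 fold change was -0.40 ± 0.17 (SE) with a limma adjusted p of 0.496 (0.326 in the trended fit). Parp9 and Dtx3l had log2 fold changes of -0.23 ± 0.16 and 0.04 ± 0.17 (SE), with overlapping groups.

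The interferon-inducible GTPases, which assemble on the vacuoles of intracellular pathogens and are mostly induced by type II interferon, did not move together. Gbp3 measured 450, 319, 295 and 390 in SRC-2 KO hearts, against 591, 622, 560 and 613 in WT hearts. It had the lowest p of the 36 members, and its 4 KO values lay well below the WT values, KO heart 4 included. The log2 fold change was -0.73 ± 0.15 (SE), with a 95% interval of -1.09 to -0.37 and a limma adjusted p of 0.308 (0.0744 in the trended fit). With Parp14 it made 2 of 36 members with all KO values below all WT values, beside 3.72% of all genes. In contrast, Igtp measured 1214, 2216, 1623 and 1266 in SRC-2 KO hearts, against 954, 1245, 989 and 960 in WT hearts. Only KO heart 1 came below the highest WT heart, and the log2 fold change was 0.57 ± 0.22 (SE; 95% interval 0.07 to 1.08, limma adjusted p = 0.466, 0.177 in the trended fit).

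The other GTPase genes had smaller differences. Iigp1, a GTPase that acts on parasite vacuoles, averaged 6644 ± 1007 in SRC-2 KO hearts and 6557 ± 837 in WT hearts (SD, n = 4 each), a log2 fold change of 0.02 ± 0.15 (SE). The log2 fold changes of Gbp2, Irgm1 and Ifi47 were -0.12, 0.07 and -0.31. The antigen processing genes Psmb8 and Psmb9, subunits of the immunoproteasome, and Tap1, the peptide transporter, had log2 fold changes of 0.10, 0.03 and 0.18, and in all 3 the highest KO value was that of heart 2. Cxcl10, a chemokine that attracts T cells, was dim, with 54.7, 32.7, 12.1 and 69.9 in SRC-2 KO hearts against 52.1, 84.4, 88.0 and 57.8 in WT hearts.

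**Figure D2:**
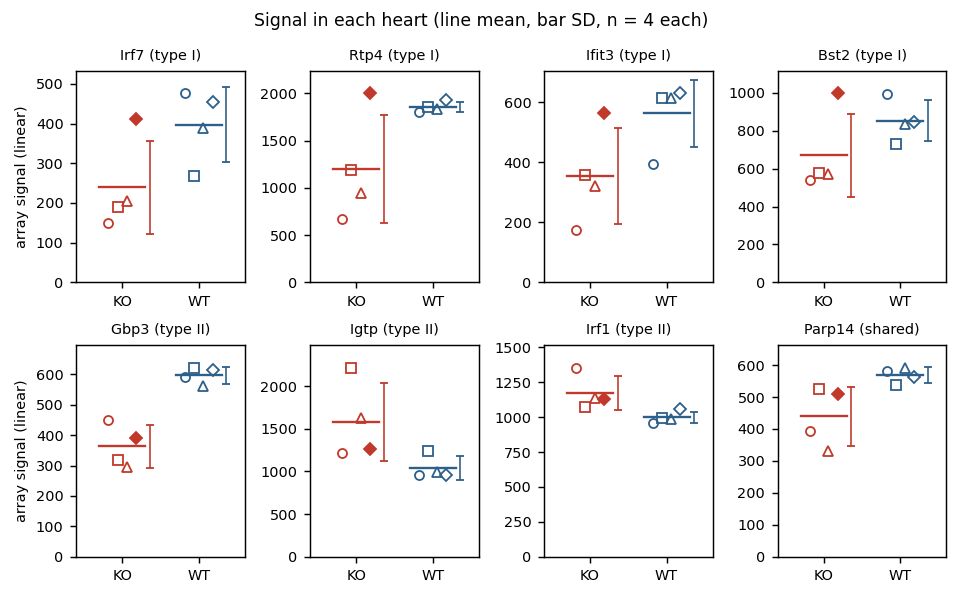
Array signal (linear axis from 0) of 8 genes in each SRC-2 KO heart (red, left) and WT heart (blue, right), with lines at the means, bars of 1 SD and n = 4 each; the symbols are those of the hearts and SRC-2 KO heart 4 is filled. In Irf7, Rtp4, Ifit3 and Bst2 the filled symbol lies within or above the WT range, apart from the other KO hearts, whereas all 4 Gbp3 values lie below WT and all 4 Irf1 values above.

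The shift of the type I genes was thus not shared by all SRC-2 KO hearts. Taking each heart's log2 signal minus the WT mean, the median over the 17 type I genes was -0.84, -0.51, -0.40 and 0.16 in SRC-2 KO hearts 1 to 4, against -0.26, 0.00, 0.09 and 0.13 in WT hearts. Over all genes the same median ran from -0.02 to 0.02 in SRC-2 KO hearts. A median over all genes of arrays scaled to a common mean cannot show whether other gene groups spread likewise. KO heart 4 was the highest KO heart for 12 of the 17 type I genes (70.6%, beside 28.4% of all genes), and KO heart 1 was the lowest for 10 (58.8%, beside 26.1%). WT hearts were not uniform either, as WT heart 1 was the lowest of its group for 12 of the 17 (70.6%, beside 26.8%). These shares describe genes that vary together within a heart and are not independent observations.

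Set against the WT range, 10, 8 and 10 of the 17 type I genes lay below all WT hearts in KO hearts 1, 2 and 3, against 1 of 17 in KO heart 4, where 7 of 17 lay above all WT hearts. For all genes the share below the WT range was 26.1%, 24.7%, 25.7% and 19.6% in KO hearts 1 to 4. For the type II genes the medians were -0.17, 0.23, -0.02 and 0.01 in SRC-2 KO hearts, against -0.06, 0.23, 0.02 and -0.17 in WT hearts, and the groups overlapped. KO heart 2 was the highest KO heart for 8 of the 11 type II genes (72.7%, beside 20.7% of all genes), so the heart that stood highest was not the same in both classes. Markers of antigen-presenting cells had the same order of WT hearts and also had KO heart 2 as the highest KO heart. The lowest KO heart differed, being heart 4 for these markers and heart 1 for the type II genes. The per-heart medians over 9 markers were -0.45, 0.32, 0.14 and -0.52 in SRC-2 KO hearts, against -0.28, 0.29, 0.25 and -0.45 in WT hearts. Of these 9 markers 6 had a mean signal over 50, and their summed signal was 3586 to 7552 in SRC-2 KO hearts against 3714 to 6585 in WT hearts. Their part in the type II values was not tested.

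Each heart was left out in turn. KO heart 4 is singled out here because it was the highest KO heart in these same type I genes, so leaving it out lowers their KO values by construction, and the counts that follow are a description and no support for a shift. Without it, 9 of 36 members (25.0%, beside 8.28% of all genes) had all KO values below all WT values, of which 7 were type I genes, Irf7, Ifit1, Ifit2, Ifit3, Bst2, Rtp4 and Xaf1, and Irf1 remained the 1 member with all KO values above (6.32% of all genes). The trended fit of limma then called 4 members lower, beside 1.19% of all genes, namely Rtp4 (log2 fold change -1.03, adjusted p = 0.0117), Gbp3 (-0.77, 0.0438), Irf7 (-1.11, 0.0449) and Bst2 (-0.59, 0.046), while the common fit called 0. Without KO heart 1 the trended fit called Gbp3 alone (-0.84, adjusted p = 0.0475), beside 0.242% of all genes. No sample note sets KO heart 4 apart, and its Ncoa2 signal of 235 was the lowest of the 8 hearts.

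**Figure D3:**
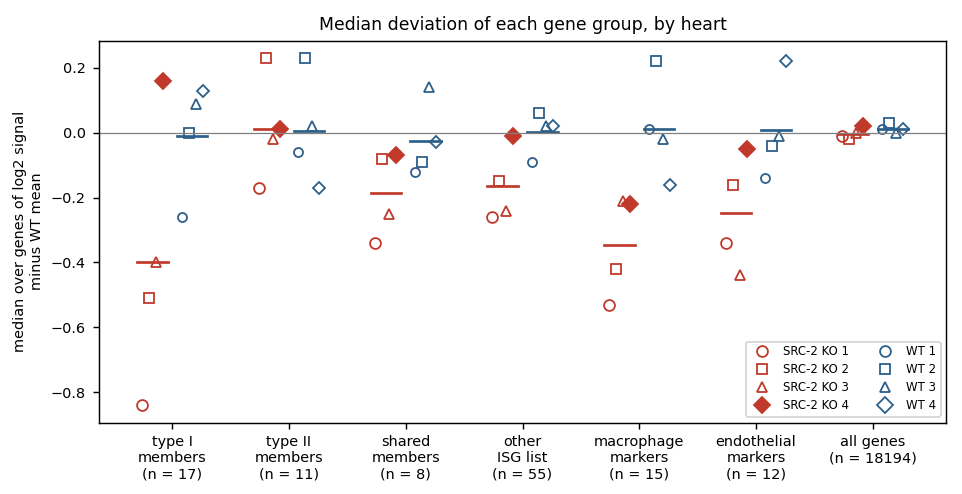
Each point is the median over the genes of a group of log2 signal minus the WT mean in 1 heart, SRC-2 KO hearts in red on the left and WT hearts in blue on the right of each group, with a line at the mean of the 4 hearts. For type I genes SRC-2 KO hearts 1 to 3 sit between -0.84 and -0.40 and heart 4 at 0.16, whereas for macrophage markers all 4 KO hearts lie below -0.20.

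**Figure D4:**
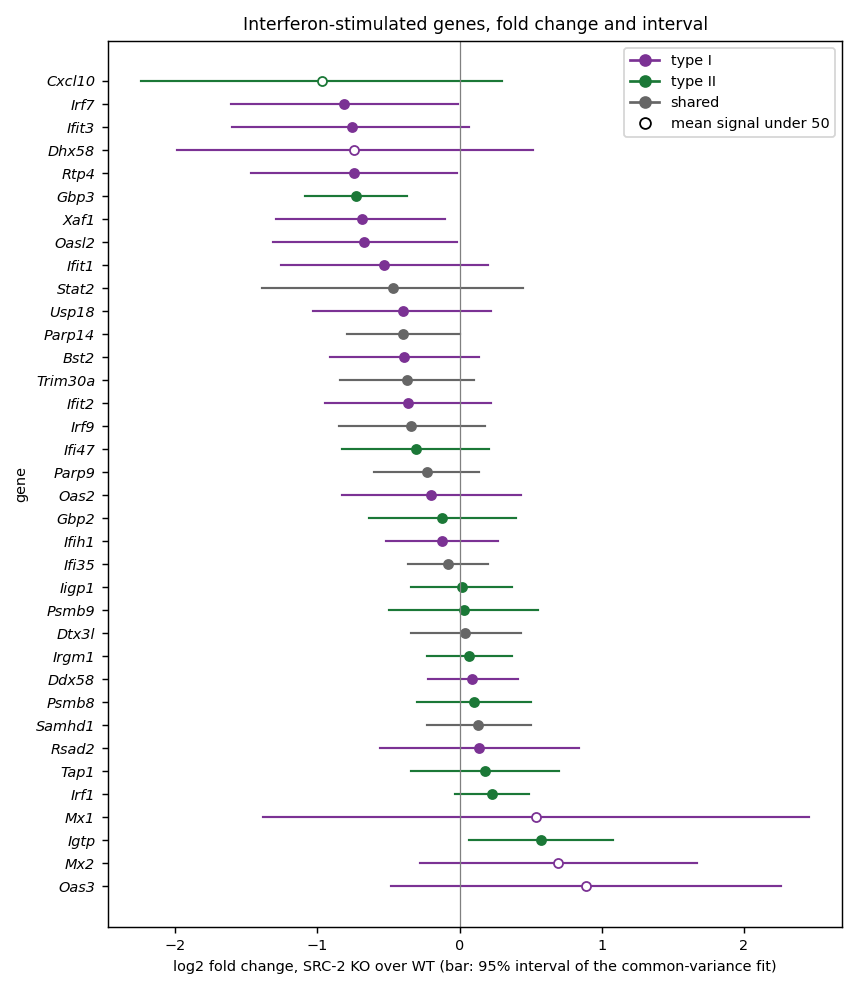
Log2 fold change (KO minus WT) of the 36 measured genes with 95% intervals from limma's common-variance fit, 4 SRC-2 KO and 4 WT hearts, coloured by class (type I purple, type II green, shared grey), with open symbols for genes whose mean signal was under 50. The intervals of Irf7, Rtp4, Xaf1, Oasl2, Gbp3, Parp14 and Igtp leave out 0 before adjustment, and that of Gbp3 is the farthest below it.

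Markers of other cell types differed alongside these values. Of 15 macrophage markers 14 were lower in SRC-2 KO hearts, the median log2 fold change being -0.36, and their summed signal was 18859 to 22871 in SRC-2 KO hearts against 23735 to 30368 in WT hearts. The per-heart macrophage medians were -0.53, -0.42, -0.21 and -0.22 in KO hearts 1 to 4, so heart 4 remained below WT there. Of 12 endothelial markers 11 were lower, with a median of -0.23, per-heart medians of -0.34, -0.16, -0.44 and -0.05 in KO hearts and overlapping sums, 13511 to 18292 in SRC-2 KO hearts against 16207 to 20715 in WT hearts. All markers of both lists had mean signals over 50.

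Fibroblast markers, 10 of 10 lower with a median of -0.72, had per-heart medians of -0.90, -0.67, -1.08 and -0.13, heart 4 again the nearest to WT. Atrial myocyte markers had the largest difference of the marker lists with lower values, 8 of 8 lower with a median of -1.64 and 2 called lower by the trended fit of limma (Tbx5 and Nr2f2, chosen for naming after their values were seen), and their per-heart medians were -0.39, -1.47, -3.14 and -1.45 in SRC-2 KO hearts, against -0.06, 0.32, 0.15 and -0.41 in WT hearts. Their summed signal was 17214 to 195910 in SRC-2 KO hearts against 156106 to 259853 in WT hearts. KO heart 1, the lowest for most type I genes, was thus the nearest of the KO hearts to WT in these atrial markers. The neutrophil marker S100a9 ran the other way, with 561, 636, 1137 and 26.5 in SRC-2 KO hearts against 31.1, 56.1, 43.2 and 11.5 in WT hearts, and S100a8 measured 425, 482, 688 and 18.0 in SRC-2 KO hearts against 132, 72.5, 117 and 124 in WT hearts. KO heart 4 was thus without the high signals of KO hearts 1 to 3 in both genes. These were the 2 neutrophil markers with the largest differences. Ngp, also over 50, did not show this, with 168, 61.0, 109 and 121 in SRC-2 KO hearts against 103, 77.4, 125 and 72.7 in WT hearts. Camp and Csf3r, with mean signals under 50, had heart 4 as the lowest KO heart. Of the 5 neutrophil markers measured 3 were over 50, and the summed signal was 191 to 2100 in SRC-2 KO hearts against 272 to 336 in WT hearts. Of the 10 lymphocyte markers measured only 2 had a mean signal over 50. Ventricular myocyte markers were 10 of 10 higher, with a median of 0.18 and 0 called by limma in either fit. Their per-heart medians were 0.38, 0.11, 0.28 and 0.00 in SRC-2 KO hearts, against 0.08, 0.19, 0.01 and -0.24 in WT hearts. Heart 1 was thus the highest and heart 4 the lowest KO heart, the reverse of the type I medians. Hearts 2 and 3 did not follow that reversed order, and the groups overlapped. The part of these cells in the values of the interferon-stimulated genes was not tested.

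Upstream of the members, the interferon genes themselves were at or near background. Of 21 ligand genes listed 10 were measured and 2 had a mean signal over 50. Ifng measured 11.7, 1.90, 1.64 and 4.78 in SRC-2 KO hearts, against 27.2, 49.4, 24.4 and 24.9 in WT hearts, all under 50 (limma adjusted p = 0.308). Ifna1 measured 141, 92.0, 56.9 and 56.8 in SRC-2 KO hearts, against 9.32, 29.9, 32.5 and 9.76 in WT hearts, with a probeset that can also detect related genes (limma adjusted p = 0.335). Ifnb1 averaged 59.4 ± 24.9 in SRC-2 KO hearts and 53.6 ± 28.9 in WT hearts (SD, n = 4 each).

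Of the receptors and kinases 9 of 10 were measured, all with mean signals over 50, 7 lower, 2 higher and 0 called by limma in either fit, with 1 lower at an unadjusted p under 0.05 in the trended fit, beside 7.22% of all genes. Ifnar1 averaged 422 ± 66.7 in SRC-2 KO hearts and 536 ± 58.3 in WT hearts, a log2 fold change of -0.35 ± 0.15 (SE, limma adjusted p = 0.505). Ifnar2, Ifngr1 and Ifngr2 had log2 fold changes of -0.08, -0.14 and 0.08, and Jak1, Jak2 and Tyk2 of -0.17, 0.12 and -0.13. The lambda interferon receptor Ifnlr1 varied widely, at 88.5 ± 53.9 in SRC-2 KO hearts and 161 ± 52.3 in WT hearts (SD, n = 4 each). Of 18 measured upstream sensing genes 10 were lower and 0 called, and in 1 all KO values lay above and in 1 all lay below the WT values, beside 3.11% and 3.72% of all genes. Mavs, the adaptor of the RNA sensors, averaged 2197 ± 212 in SRC-2 KO hearts and 1537 ± 237 in WT hearts (log2 fold change 0.52, limma adjusted p = 0.385, 0.0918 in the trended fit). Its probeset, like that of Ifna1, is of a kind that can also detect other genes. Unc93b1, the chaperone of endosomal Toll-like receptors, averaged 315 ± 70.6 in SRC-2 KO hearts and 457 ± 33.0 in WT hearts (-0.57, limma adjusted p = 0.409). Of 14 feedback and partner factors 8 were lower and 0 called. In 1 of them, Ptpn11, all KO values lay above all WT values, beside 3.11% of all genes, and in 0 all lay below. Ptpn11 averaged 8139 ± 563 in SRC-2 KO hearts and 6911 ± 476 in WT hearts (SD, n = 4 each). Its log2 fold change was 0.24, with a limma adjusted p of 0.514 (0.266 in the trended fit).

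A wider list of 67 other interferon-stimulated genes gave 55 measured, 37 lower and 18 higher, with 0 called, and the median of their log2 fold changes was -0.15. Its per-heart medians were -0.26, -0.15, -0.24 and -0.01 in SRC-2 KO hearts. In 3 of the 55 all KO values lay below all WT values, beside 3.72% of all genes, and in 0 all lay above. Sp100, a nuclear body protein, averaged 202 ± 16.5 in SRC-2 KO hearts and 288 ± 33.2 in WT hearts, Zc3hav1, which degrades viral RNA, 826 ± 35.8 in SRC-2 KO hearts and 1072 ± 82.6 in WT hearts, and Ly6e 3343 ± 277 in SRC-2 KO hearts and 4211 ± 312 in WT hearts (SD, n = 4 each). Their log2 fold changes were -0.51, -0.37 and -0.33, with limma adjusted p of 0.342, 0.385 and 0.422. In these genes KO heart 4 was the highest or next to highest KO heart yet still below WT. Oas1a, another oligoadenylate synthetase, measured 263, 327, 371 and 474 in SRC-2 KO hearts, against 539, 449, 547 and 619 in WT hearts, heart 1 again the lowest and heart 4 the highest KO heart (-0.61 ± 0.20 SE, limma adjusted p = 0.422).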

How the data were processed

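Per the labels, biotinylated cRNA from total heart RNA was hybridised to Affymetrix Mouse 430 2.0 arrays. RMA, Partek and Affymetrix Expression Console are the tools that the submitters listed in their notes on processing. The deposited intensity values were on a linear scale, and each array had a 2% trimmed mean of 500, so values scaled by the authors to a common mean rather than log2 RMA values were used. They were log2-transformed with no floor. Of 45101 probesets, 34958 were annotated to 1 symbol, 932 to several (not used), 9211 were not listed and 64 were controls. The probeset with the highest mean log2 signal represented each gene, leaving 18194 genes. SRC-2 KO and WT hearts were compared with limma 3.58.1 in R 4.3.3 (lmFit and eBayes, common or trended prior variance, Benjamini-Hochberg adjustment over all genes), 4 arrays each. Other probesets were compared by a two-sided exact permutation test, whose smallest p is 0.0286. The number of arrays limits the precision. The limma p-values set each difference against the spread between these hearts, moderated toward that of all genes. With 1 array per heart, variation between animals and between arrays cannot be told apart.

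The members and gene lists were chosen with earlier results of these data known. Named were Ncoa2, all members and, of each pathway list, up to 4 genes with the smallest p and the defining ligands and receptors. Ifi44 and Isg15 had no probeset with 1 gene symbol and were not analysed here. Promoters came from RefSeq (GRCm38.p6), and no window was used for the remaining members. Alternatives covered the variance model, array weights, the replicate block, probeset choice, dim genes, scaling and leaving out each heart. Scripts were tested on simulated data.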

Additional observations from a re-analysis of the deposited data

Results flagged for a closer look

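Among 72 groups of 4 hearts (36 genes in 2 genotypes), 5 held a heart whose gap to the nearest of the others, divided by the range, was above Dixon's 95% critical value, where chance gives about 1 in 20 groups (3.60 of 72). Bst2 in SRC-2 KO heart 4 was 996, with the other KO hearts at 537 to 576. Stat2 in SRC-2 KO heart 2 was 24.8, with the others at 72.8 to 80.0. Igtp in WT heart 2 was 1245, with the others at 954 to 989. WT heart 1 was low in 2 of the 5, at 396 for Ifit3, with the others at 614 to 630, and at 2110 for Rsad2, with the others at 2820 to 2932.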

How the results depend on the processing

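Across 20 alternatives, the sign of the log2 fold change was kept in 696 of 715 comparisons over 36 genes and changed in 19, in 11 genes. With the mean of all probesets Ddx58 was -0.06, Stat2 0.11, Dtx3l -0.02 and Iigp1 -0.00. With signals under 50 set to 50 Mx1 was -0.03, and after quantile normalization Iigp1 was -0.04. Leaving out 1 heart at a time gave -0.36 to 0.05 for Oas2, -0.15 to 0.28 for Rsad2, -0.07 to 0.13 for Dtx3l, -0.24 to 0.02 for Gbp2, -0.08 to 0.09 for Iigp1, -0.01 to 0.12 for Irgm1, -0.02 to 0.21 for Psmb8 and -0.17 to 0.13 for Psmb9. The medians over all members and over type I genes stayed below 0 in every alternative (-0.26 to -0.14 and -0.59 to -0.23 with 1 heart left out), whereas the type II median ran from -0.08 to 0.10. Members with all KO values above all WT values numbered 2, and those with all KO values below numbered 1, with the mean of all probesets, with arrays centred on their medians and after quantile normalization; leaving out 1 heart gave 1 to 3 above and 2 to 9 below, the 9 without KO heart 4, and 5 below without WT heart 1. The trended fit called 0 to 4 members lower with 1 heart left out. The causes were not tested.

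Same-numbered SRC-2 KO and WT hearts did not deviate together (correlations 0.06, -0.08, -0.02 and 0.11 for numbers 1 to 4), so the numbers were not taken as pairs. With the replicate block 0 members were called, and the medians were -0.22 over all members, -0.39 over type I and 0.03 over type II genes. Choosing probesets by mean linear signal, an alternative chosen after seeing the data, gave medians of -0.16, -0.36 and 0.03, with Xaf1 at -0.02. Of 14 other member probesets over 50, 7 had the sign of the probeset used and 7 the opposite sign. Signals under 50, in 5 of the 36 genes, limit the values of Dhx58, Oas3, Mx1, Mx2 and Cxcl10.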
